A study of Mus musculus with 8 samples.

Results

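The 32 genes described here encode enzymes, regulators and carriers of cellular cholesterol: 18 enzymes of sterol synthesis, the transcription factor SREBP2 with 3 of its regulators, 4 genes of uptake and intracellular transport, 2 enzymes that esterify or hydroxylate cholesterol, and 4 genes of cholesterol efflux. They were chosen by name as a pathway, each matched 1 of the 34299 rows of the table of counts, and all 32 passed the filter on low counts in every comparison. RNA-seq of polyadenylated RNA from whole mouse brain had been done in 3 groups. These were wild-type (WT) fetuses at gestation day 15 (3 libraries), fetuses of the same age with a knockout (KO) of Cav1 (3 libraries), and Cav1 KO animals at week 70 (2 libraries). Cav1 encodes caveolin 1, a cholesterol-binding protein that shapes the membrane pits called caveolae. The labels name no strain, no litter and no design of the knockout allele. They call the fetal samples biological replicates, and say nothing on the source of the week 70 pair. No WT library of week 70 was analysed here, so age was compared within the knockout.

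The brain makes nearly all of its own cholesterol, because lipoproteins of the blood hardly cross the blood-brain barrier. Synthesis begins with the mevalonate arm, which builds isoprenoid units from acetyl-CoA, and goes on through squalene and lanosterol to cholesterol. When membranes are poor in sterols, SCAP escorts SREBP2, the product of Srebf2, from the endoplasmic reticulum to be cleaved, and the freed fragment switches on synthesis and uptake. INSIG proteins hold SCAP back when sterols are plentiful. Excess cholesterol leaves through ABC transporters, which liver X receptors such as the product of Nr1h2 induce, or from neurons after 24-hydroxylation by CYP46A1. Myelin is rich in cholesterol and takes up much of what the young brain makes.

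Promoters are shown for 5 genes, chosen after their values were seen, to show the motifs beside genes that moved in either direction. RefSeq promoters on GRCm38.p6, running from 250 bases before to 50 bases after a start site, were found for 25 of the 32 genes. The letters CCAAT, the box bound by NF-Y, a partner of SREBP2, stood on either strand in 20 of these 25 genes (80%) and in 41.1% of all 27025 genes in the promoter table. Among the synthesis enzymes 14 of 15 held it, Acat2 being the exception. The letters TCACNCCA, from the sterol regulatory element, stood in 3 of 25 (12%) and in 4.97% of all genes. This form was shortened by 1 letter after the sequences had been seen, and with a final C (TCACNCCAC) only Hmgcs1 held it. The windows printed are the 250 bases before the start, 5′ to 3′ on the gene's strand, with both motifs in capitals (CCAAT appears as ATTGG when it lies on the opposite strand). They lie at chr13:119690101-119690350 (plus strand) for Hmgcs1, chr15:82147019-82147268 (plus) for Srebf2, chr8:64733579-64733828 (minus) for Msmo1, chr7:143829964-143830213 (plus, 1 of 3 starts) for Dhcr7 and chr4:53159896-53160145 (minus) for Abca1.
Hmgcs1: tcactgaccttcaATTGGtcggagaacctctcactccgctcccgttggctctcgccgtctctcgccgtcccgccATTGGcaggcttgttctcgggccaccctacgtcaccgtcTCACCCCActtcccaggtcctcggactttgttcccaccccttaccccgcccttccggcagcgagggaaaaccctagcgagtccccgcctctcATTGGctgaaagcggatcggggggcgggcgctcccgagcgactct
Srebf2: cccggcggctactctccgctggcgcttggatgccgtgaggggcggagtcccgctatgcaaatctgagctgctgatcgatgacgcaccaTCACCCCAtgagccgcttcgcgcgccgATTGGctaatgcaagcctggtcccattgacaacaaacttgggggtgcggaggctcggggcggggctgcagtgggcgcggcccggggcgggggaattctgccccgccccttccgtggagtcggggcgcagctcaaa
Msmo1: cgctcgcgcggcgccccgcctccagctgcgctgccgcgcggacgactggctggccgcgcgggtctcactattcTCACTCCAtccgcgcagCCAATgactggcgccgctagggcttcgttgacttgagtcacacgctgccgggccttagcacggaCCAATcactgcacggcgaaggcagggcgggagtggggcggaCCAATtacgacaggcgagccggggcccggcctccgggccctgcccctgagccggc
Dhcr7: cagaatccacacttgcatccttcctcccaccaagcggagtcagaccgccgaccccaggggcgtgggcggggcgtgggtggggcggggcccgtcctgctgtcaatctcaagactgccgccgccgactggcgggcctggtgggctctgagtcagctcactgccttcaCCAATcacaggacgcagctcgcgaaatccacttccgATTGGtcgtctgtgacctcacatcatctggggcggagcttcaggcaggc
Abca1: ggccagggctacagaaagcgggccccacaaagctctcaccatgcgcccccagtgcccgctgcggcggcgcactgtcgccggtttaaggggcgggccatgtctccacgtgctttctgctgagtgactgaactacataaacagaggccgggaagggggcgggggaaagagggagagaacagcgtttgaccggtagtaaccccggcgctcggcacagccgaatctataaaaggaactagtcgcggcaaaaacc
Hmgcs1 and Msmo1 each held 3 CCAAT boxes and 1 sterol element in this window, Srebf2 held 1 of each, Dhcr7 held 2 CCAAT boxes and Abca1 neither motif. Of the 3 Dhcr7 starts, the 1 shown was picked because it held CCAAT boxes, and the promoters of the others held neither motif. As described below, Hmgcs1, Srebf2, Dhcr7 and Abca1 were lower in the fetal knockout and Msmo1 was higher.

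Total counts ranged from 19414747 to 20833397 in WT day 15, from 14110031 to 15245283 in KO day 15, and from 18924304 to 20203233 at week 70. Depth therefore separated the fetal genotypes, and the labels give no batch, so that a batch and the genotype cannot be told apart. Cav1 held 218 to 367 counts in the WT libraries and at most 5 in any KO library. None of 6 neuronal markers stood at 3 counts or fewer throughout a group. Their summed level was 2934 to 4089 normalised CPM in the fetal libraries and 7829 and 8208 at week 70. Normalised CPM are counts scaled to the library size multiplied by edgeR's TMM scaling factor, set over all 8 libraries. The factors ran from 0.751 in week 70 replicate 1 to 1.18 in KO day 15 replicate 2. These CPM therefore differ from counts scaled to library size alone. The p-values measure the spread between these libraries. The 32 genes took 0.31 to 0.323% of all counts in WT day 15, 0.222 to 0.247% in KO day 15, and 0.231 and 0.235% at week 70.

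The genotypes were compared first, in the fetal brain. In edgeR's quasi-likelihood test, with Benjamini-Hochberg adjustment over 19147 genes and a threshold of 0.05, 17 of the 32 genes were lower in KO and 7 were higher, and 8 were not called. The low-density lipoprotein receptor family member Lrp1, the transcription factor gene Srebf2, the efflux transporter genes Abca1 and Abcg1 and the SREBP escort gene Scap fell most before any correction, by 1.71, 1.69, 1.20, 1.25 and 1.08 on the log2 scale. The isomerase gene Idi1 and the demethylation enzyme gene Msmo1 rose most before the correction described next, by 1.02 and 0.78. Of all tested genes 62.6% were called, 32.5% lower and 30.1% higher, against 53.1% and 21.9% of the 32. The median log2 fold change was -0.25 over the 32 genes and 0.03 over all tested genes.

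Fold changes between the genotypes varied with transcript length and GC content. Across the 32 genes, which share the same 6 libraries, Spearman's rho of the log2 fold change was -0.50 with exon length and -0.34 with GC content. A fit with a smoothed correction for both properties gave 13 higher and 12 lower, with a median of -0.10, against 26.4% and 26.3% of all genes (52.7% in either direction). In that fit the falls of Mvd and Scap and the rises of Sc5d and Stard4 were lost, and 3 genes called lower were called higher (Lss, Abcg4 and Nr1h2). Mvk, Pmvk, Fdft1, Npc2 and Cyp46a1 were called higher there and not called without the correction. The order of the rises also changed, with Msmo1 at 0.77, Fdps at 0.74, Cyp46a1 at 0.67, Tm7sf2 at 0.59 and Idi1 at 0.48. Upper-quartile scaling moved the median of all tested genes from 0.03 to 0.20. It gave 10 of the 32 genes higher and 10 lower, against 7627 higher and 4915 lower of 19147 tested genes. The falls of Acat2, Hmgcs1, Cyp51, Nsdhl, Soat1, Abcg4 and Nr1h2 were lost there. Over all 16 alternatives listed under the processing, 11 genes were called each time in the same direction: Idi1, Tm7sf2, Msmo1 and Insig2 higher, and Sqle, Dhcr7, Srebf2, Lrp1, Npc1, Abca1 and Abcg1 lower. How many of all tested genes were called in every alternative was not counted.

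**Figure D1:**
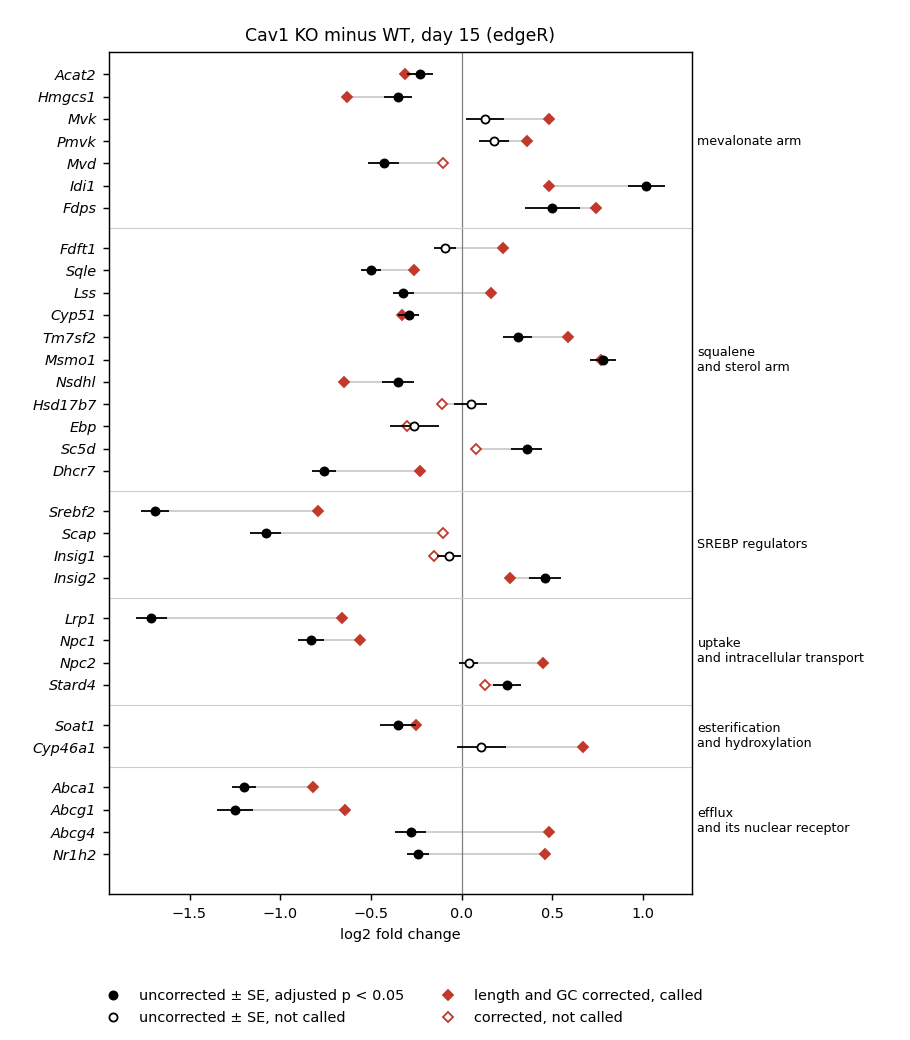
Log2 fold change of each gene, Cav1 KO minus WT at day 15, from edgeR (3 libraries a group). Black circles are uncorrected values with their standard error, red diamonds the length and GC corrected values, and filled symbols have an adjusted p under 0.05. Lrp1, Srebf2, Abca1 and Abcg1 lie left of 0 in both fits, whereas Abcg4 and Nr1h2 cross from -0.28 and -0.24 to 0.48 and 0.46.

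The ages were compared next, within the knockout. Of the 32 genes 19 were higher and 8 lower at week 70 than at day 15, and 5 were not called (edgeR, 20000 genes tested). These calls rest on TMM scaling. Over all 8 libraries its factors were 1.17 to 1.18 in KO day 15 and 0.751 and 0.767 at week 70, which raises week 70 levels. As shares of all counts, without these factors, the 32 genes overlapped, with 0.222 to 0.247% in KO day 15 and 0.231 and 0.235% at week 70. The neuronal cholesterol hydroxylase gene Cyp46a1 rose by 4.08 and the efflux transporter gene Abcg1 by 3.25 on the log2 scale. All 4 SREBP regulators rose, by 0.73 to 1.94. The mevalonate arm held 1 gene that rose (Mvd) and 4 that fell (Acat2, Hmgcs1, Mvk and Fdps), and the squalene and sterol arm 6 that rose and 4 that fell. Among all tested genes 82% were called, 37.6% higher and 44.4% lower, against 59.4% and 25% of the 32, and the medians were -0.19 and 0.35.

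Length and GC correction gave 15 higher and 9 lower among the 32, against 41.1% and 36.8% of all genes (77.9% in either direction), with a median of 0.05. It turned the calls of Lrp1 and Abcg4 from higher to lower and that of Hmgcs1 from lower to higher, and the rises of Scap, Nr1h2, Dhcr7, Mvd and Fdft1 and the fall of Cyp51 were lost. It added calls for Idi1 and Sc5d, both higher, and for Npc2, lower. Upper-quartile scaling moved the median of all genes from -0.19 to -0.44. It left 12 of the 32 higher and 8 lower, against 6488 higher and 9969 lower of 20000 tested genes. The rises of Mvd, Fdft1, Msmo1, Nsdhl, Hsd17b7, Dhcr7 and Stard4 were lost there. In all 15 alternatives 13 genes were called in the same direction: Ebp, Srebf2, Insig1, Insig2, Npc1, Soat1, Cyp46a1 and Abcg1 higher, and Acat2, Fdps, Sqle, Lss and Tm7sf2 lower. The same count over all tested genes was not made.

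**Figure D2:**
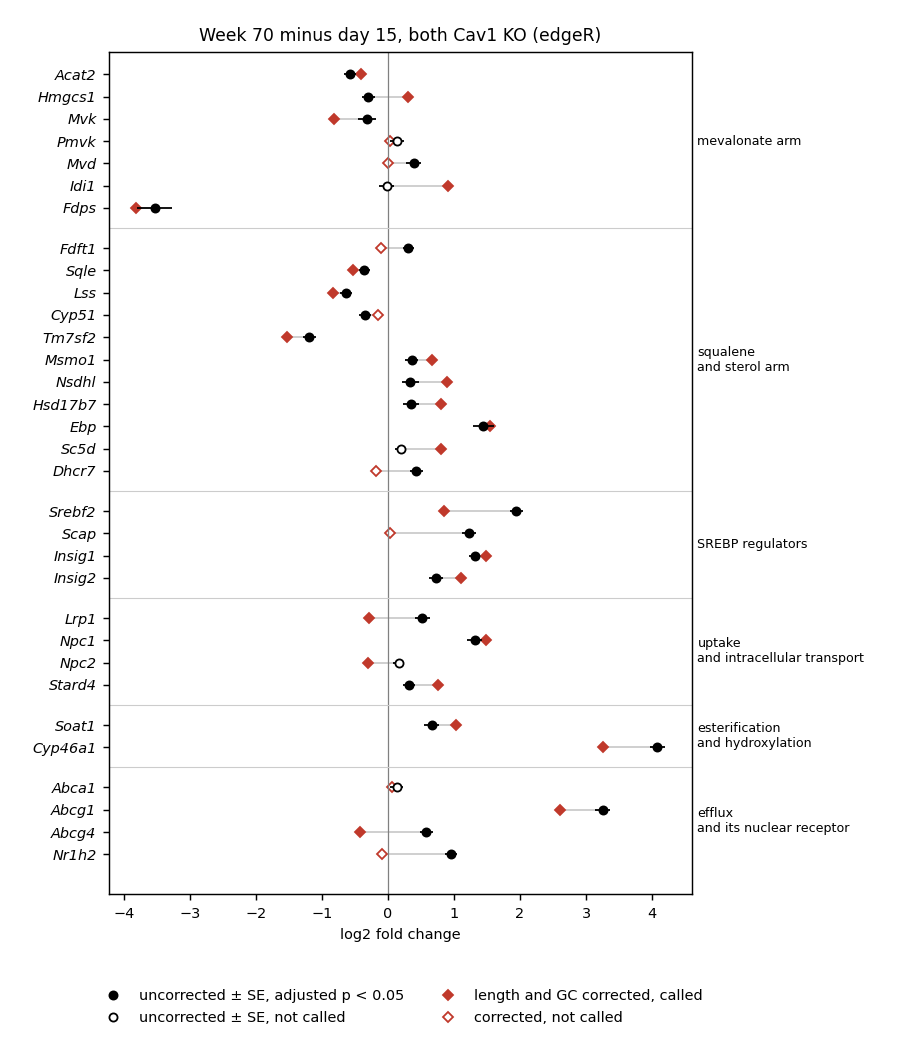
Log2 fold change of each gene, week 70 (2 libraries) minus day 15 (3 libraries), both Cav1 KO, from edgeR, with symbols as in the plot of the genotypes. Cyp46a1 (4.08) and Abcg1 (3.25) stand furthest to the right and Fdps (-3.53) furthest to the left, in both fits.

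Markers of other cells moved with these comparisons. Between the fetal genotypes all 6 endothelial markers were called lower in KO, with sums of 171 to 235 CPM in WT and 50.8 to 65.9 in KO. All 6 neural progenitor markers were also lower (4 lower and 1 higher when corrected), with sums of 1160 to 1312 and 495 to 512.5 CPM. Of the fibroblast and meninges markers 4 of 6 were lower, with sums of 306.5 to 4443 and 67.8 to 141 CPM. The highest value was that of WT replicate 1, and without it 1 call among the 32 genes was lost, that of Fdps. All 6 erythroid markers were higher, with sums of 954 to 1235 and 3569 to 4380. Of the 6 markers in each list, 3 astrocyte markers were lower and 1 higher, 4 microglia markers lower and 1 higher, and 4 neuronal markers lower and 2 higher. The astrocyte sums were 355 to 445 CPM in WT and 190 to 197 in KO, the microglia sums 54.1 to 83.3 and 34.5 to 36.6, and the neuronal sums 3670 to 4089 and 2934 to 2988, none with overlap. Oligodendrocyte sums were 99.9 to 112 in WT and 82.6 to 86.2 CPM in KO. By age all 8 oligodendrocyte markers were higher, summing to 82.6 to 86.2 CPM in KO day 15 and to 13580 to 13720 at week 70. All 6 astrocyte and all 6 microglia markers were also higher, with sums of 190 to 197 against 6212 to 6650 and of 34.5 to 36.6 against 441 to 537 CPM. All 6 endothelial markers were higher as well, with sums of 292 to 319.5 CPM at week 70, and 4 neuronal markers were higher and 2 lower. All 6 erythroid markers were lower, with sums of 490 to 777.5 CPM, as were 5 of 6 progenitor markers (1 higher), with 205 to 214. Fibroblast and meninges markers were 2 higher and 2 lower, with 121 to 141.5 CPM. The list of liver markers was Alb, Ttr, Apoa1, Apoa2, Ahsg and Serpina1a. The 5 of them in the table summed to 75.6 CPM in week 70 replicate 1 and to 2264 in replicate 2, against 296.5 to 385.5 in the fetal libraries. Which gene carried this sum, and whether its RNA came from liver or from brain, was not tested. Without week 70 replicate 2 the age comparison lost the call of Mvk and gained one for Sc5d. The 5 steroidogenic or adrenal markers in the table summed to 13.4 to 17.6 CPM in the fetal libraries and to 8.62 and 8.64 at week 70. At 3 counts or fewer in every library of a group stood Opalin (oligodendrocyte) and Ahsg (liver) in WT day 15, Cyp21a1 in KO day 15, and Cyp21a1, Hsd3b1 and Nr5a1 at week 70. The part of these cells in the results below was not tested, and in bulk tissue fewer cells of a type and less RNA per cell cannot be told apart.

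**Figure D3:**
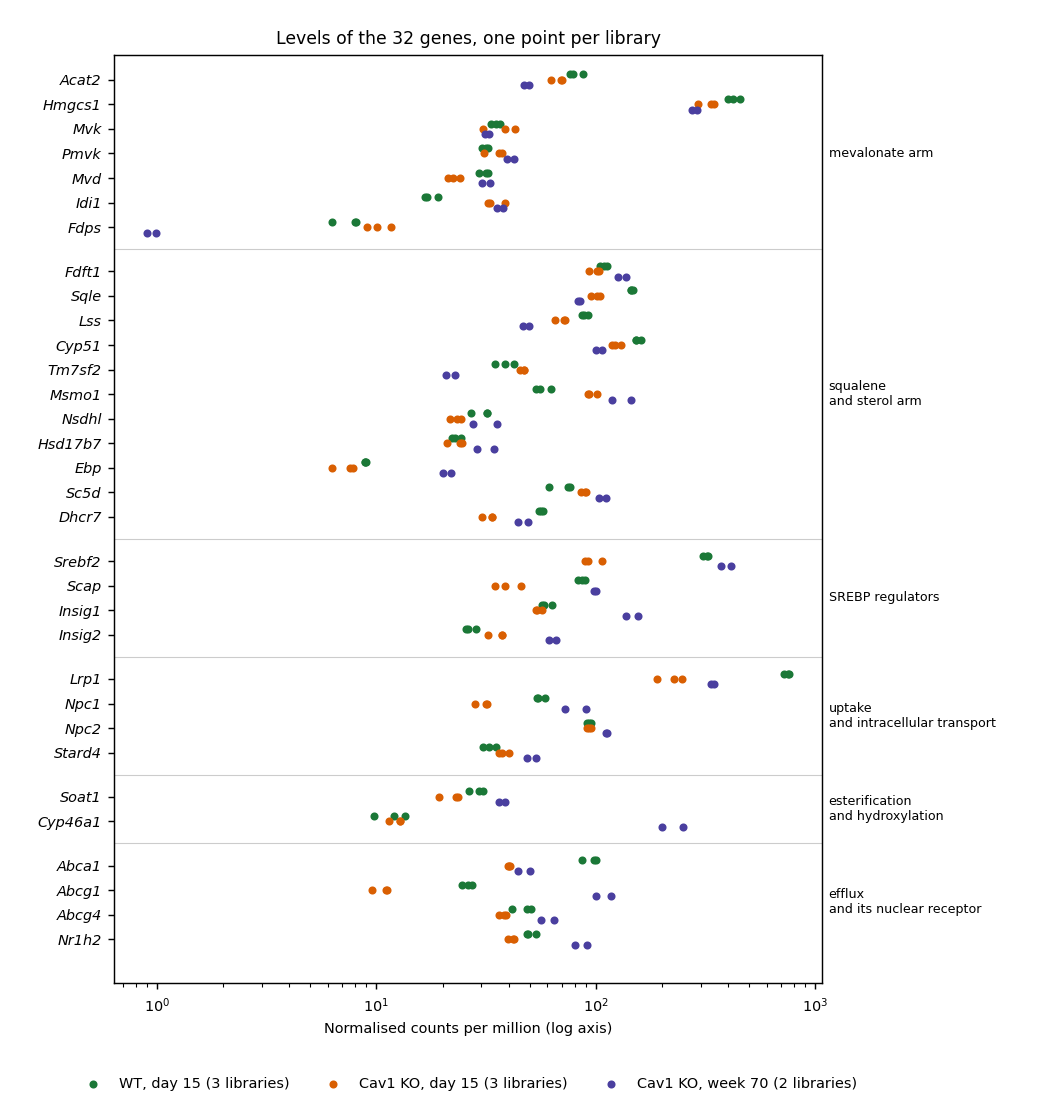
Normalised CPM of the 32 genes (log axis), with 1 point per library, grouped by role. Lrp1, Srebf2 and Abcg1 show KO day 15 apart from and below both other groups, the levels of Acat2, Sqle, Lss and Cyp51 step down from WT day 15 to KO day 15 to week 70, and Cyp46a1 is high at week 70.

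The mevalonate arm was led by Hmgcs1, which encodes the cytosolic HMG-CoA synthase. Divided by the length of all annotated exons, it was the most abundant of the 32 genes in both fetal groups, at 92.3 CPM per kilobase in WT day 15 and 70.7 in KO day 15. WT day 15 libraries held it at 399, 419.8 and 454 CPM, KO day 15 libraries at 345, 336 and 292.5, and week 70 libraries at 275 and 289. The 3 groups did not overlap. The fall between the genotypes was 0.35 on the log2 scale (SE 0.077, edgeR adjusted p 0.00264). The value was -0.63 after the length and GC correction and was not called with upper-quartile scaling. The further fall of 0.30 by age was called by edgeR (adjusted p 0.0141), but it was lost without any 1 of KO day 15 replicates 1 and 2 and week 70 replicate 1, and turned to a rise of 0.30 after the correction.

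Acat2, for the thiolase that joins acetyl-CoA units, ran in the same order. It was at 76.4, 87.5 and 78.4 CPM in the WT day 15 libraries, 70.1, 69.0 and 62.5 in those of KO day 15 and 49.7 and 47.1 in those of week 70, again with no overlap. The genotype difference was a log2 fold change of -0.23, which lost its call without WT replicate 2, without KO replicate 3 and with upper-quartile scaling. By age it was -0.57. An Acat2 transcript aligned to the paralog Acat3 over 64% of the Acat2 length at 98.3% identity, so reads may have been split. Acat3 held at most 97 counts in any library. Acat2 also aligned to Tcp1 over 24.2% of its length at 99.1% identity, and Tcp1 held 2853 to 4792 counts per library.

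Mvd, for mevalonate diphosphate decarboxylase, was at 29.4, 32.1 and 31.6 CPM in the WT day 15 libraries, 24.02, 22.3 and 21.1 in those of KO day 15 and 30.1 and 33.0 in those of week 70. Its KO day 15 libraries lay below both other groups, with a log2 fold change of -0.43 between genotypes (-0.10 and no call when corrected) and 0.39 by age (0.00 when corrected). The kinase genes Mvk and Pmvk were not called between genotypes, at 0.13 and 0.18. Mvk lay between 30.6 and 42.65 CPM and Pmvk between 30.4 and 42.4 over all 8 libraries. Their WT and KO day 15 libraries overlapped, and both were called higher by edgeR with length and GC corrected (adjusted p 0.000862 and 0.00242). Mvk fell by 0.32 by age, a call that edgeR lost without any single library except KO day 15 replicate 3, while Pmvk stayed uncalled at 0.14.

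Idi1 and Fdps, for isopentenyl diphosphate isomerase and farnesyl diphosphate synthase, carry a counting limit. Both have processed pseudogenes of nearly the same sequence. In the Idi1 row there were 354, 382 and 337 counts for WT day 15, 540, 577 and 667 for KO day 15, and 534 and 549 for week 70. The row of Idi1-ps1, which matched an Idi1 transcript at 100% identity, held 465, 382 and 419, then 586, 642 and 770, then 12 and 5. Both rows were thus higher in the fetal knockout than in WT, and at week 70 the pseudogene row held 12 and 5 counts.

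The rise of Idi1 in the fetal knockout was 1.02 (SE 0.103, edgeR adjusted p 1.04e-05), 0.48 when corrected and 0.98 with pseudogene counts added. By age the Idi1 row alone gave -0.02 and no call, whereas Idi1 with its pseudogenes gave -1.08 (edgeR adjusted p 8.48e-06). The call of Idi1 with age therefore depends on how these reads are assigned, and its corrected value was 0.91.

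Counts of Fdps were 134, 162 and 158 for WT day 15, 191, 181 and 156 for KO day 15, and 15 and 13 for week 70. Its pseudogenes took 90 to 92% of the summed Fdps and pseudogene counts in WT day 15 and 88 to 88.5% in KO day 15. Summed, the level was 78.6 to 84.4 CPM in WT, 78.9 to 96.2 in KO day 15, and 4.88 and 5.24 at week 70. The fetal difference of 0.50 was 0.13 with pseudogene counts added, which edgeR did not call (adjusted p 0.149). It also lost its call without the filter, without WT replicate 1 and without KO replicate 1. The age difference was -3.53 in the Fdps row and -4.19 in the sum. Processed pseudogenes as a class took 3.55 to 3.69% of counts in WT day 15, 6.15 to 6.49% in KO day 15 and 0.306% in both week 70 libraries, so that the level of Fdps at week 70 is uncertain.

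In the squalene and sterol arm 5 of 11 enzymes fell in the fetal knockout, 3 rose and 3 were not called. Sqle, for squalene epoxidase, a rate-limiting step after squalene, was at 144, 145 and 148 CPM in the WT day 15 libraries, 105, 101 and 95.4 in those of KO day 15 and 83.0 and 84.5 in those of week 70. The groups did not overlap. Sqle fell by 0.50 between genotypes (SE 0.055, edgeR adjusted p 2.01e-05) and by 0.36 with age (-0.26 and -0.53 when corrected). Fdft1 stood at 104 to 113 CPM in WT, 93.1 to 103 in KO day 15, and 137 and 126 at week 70. Its product, squalene synthase, acts just before squalene epoxidase, and Fdft1 was not called between genotypes, at -0.09, a value that turned to 0.23 and a call after correction. Fdft1 shares 774 exonic bases with Ctsb on the opposite strand, whose level was 65.8 to 173 CPM in the fetal libraries and 950.2 and 1032 at week 70. The use of strand in counting is not given in the sources used here, so the rise of Fdft1 by 0.31 with age is uncertain.

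Lss and Cyp51 act next, to form lanosterol and to remove its first methyl group. Cyp51 was at 151, 153 and 159.6 CPM in the WT day 15 libraries, 130, 121.5 and 118 in those of KO day 15 and 107 and 99.6 in those of week 70. Lss was at 88.7, 86.7 and 91.6, then 72.1, 71.2 and 65.3, then 46.6 and 49.6 CPM. Both were highest in WT day 15 and lowest at week 70, without overlap. Between genotypes Cyp51 fell by 0.29 (-0.33 when corrected, not called with upper-quartile scaling) and Lss by 0.32, which became a rise of 0.16 when corrected. With age they fell by 0.35 and 0.63, and the fall of Cyp51 was not called when corrected.

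Msmo1, for the oxidase that acts after Cyp51 on the remaining methyl groups, rose. It was at 53.5, 55.7 and 62.7 CPM in the WT day 15 libraries, 101, 92.8 and 92.3 in those of KO day 15 and 144 and 118.5 in those of week 70. Every KO day 15 library stood above every WT library, and both week 70 libraries above all fetal ones. The rise between genotypes was 0.78 (SE 0.072, edgeR adjusted p 5.23e-06) and 0.77 when corrected. The rise of 0.36 with age was 0.66 when corrected, and edgeR did not call it without week 70 replicate 1 or with upper-quartile scaling.

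The ratio of raw Msmo1 to Cyp51 counts needs no scaling between libraries, and the 2 genes have nearly the same GC content (44.7 and 46.2%), with exon lengths of 6144 and 4415 bases. This pair was chosen after its values were seen. The ratio was 0.353, 0.365 and 0.393 in the WT day 15 libraries, 0.78, 0.764 and 0.78 in those of KO day 15 and 1.35 and 1.19 in those of week 70. The groups did not overlap, with WT day 15 lowest and week 70 highest. Msmo1 to Nsdhl, the dehydrogenase gene that acts after Msmo1, gave 1.68 to 2.07 in WT, 3.83 to 4.34 in KO day 15, and 4.08 and 4.33 at week 70, so here the KO groups overlapped.

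Nsdhl was at 26.9 to 31.99 CPM in WT, 21.6 to 24.2 in KO day 15, and 35.3 and 27.4 at week 70, the lower of which lay inside the WT range. Nsdhl fell by 0.35 in the fetal knockout, with -0.65 when corrected and no call with upper-quartile scaling. Its rise of 0.34 with age was 0.89 when corrected, and was not called with RLE or upper-quartile scaling, in DESeq2, with the replicate number as a block, without any 1 of the 3 KO day 15 libraries or without week 70 replicate 1. Tm7sf2, for a sterol reductase, was at 34.8, 38.5 and 42.5 CPM in the WT day 15 libraries, 47.1, 47.0 and 45.1 in those of KO day 15 and 22.9 and 20.8 in those of week 70. It rose by 0.31 between genotypes (0.59 when corrected) and fell by 1.19 with age (-1.53 when corrected). It shares 532 exonic bases on the same strand with its neighbour Vps51.

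Of the last enzymes, Dhcr7, which performs the final reduction to cholesterol, had the lowest log2 fold change of the 18 enzymes between genotypes before correction. Its levels were 56.3, 55.1 and 57.6 CPM in the WT day 15 libraries, 33.6, 33.6 and 30.1 in those of KO day 15 and 49.1 and 44.4 in those of week 70. The log2 fold change between genotypes was -0.76 (SE 0.066, edgeR adjusted p 3.27e-06) and -0.23 when corrected, where Nsdhl (-0.65), Hmgcs1 (-0.63), Cyp51 (-0.33), Acat2 (-0.31) and Sqle (-0.26) fell by more and Ebp, not called, was at -0.30. With age it was 0.43, and -0.18 with no call when corrected. The desaturase gene Sc5d, whose product acts just before Dhcr7, was at 61.0 to 76.4 CPM in WT, 85.1 to 90.0 in KO day 15, and 111 and 104 at week 70, with no overlap. Sc5d rose by 0.36 between genotypes, a call lost after correction. With age its value of 0.19 was not called, but it was 0.80 and called when corrected and 0.28 and called with all 8 libraries in 1 fit. Hsd17b7, a keto-reductase gene, lay between 20.9 and 24.6 CPM in the fetal libraries, was not called between genotypes, at 0.05, and stood at 34.4 and 28.8 CPM at week 70. Its rise of 0.35 with age was 0.81 when corrected, and was not called in DESeq2, with upper-quartile scaling, with the replicate number as a block, or without KO day 15 replicate 2, KO day 15 replicate 3 or week 70 replicate 1.

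Ebp, for the sterol isomerase mutated in a form of chondrodysplasia, was at 8.94, 8.89 and 8.90 CPM in the WT day 15 libraries, 6.25, 7.85 and 7.54 in those of KO day 15 and 21.8 and 20.1 in those of week 70. The difference of -0.26 between genotypes did not pass the test (edgeR adjusted p 0.113). Its rise with age, 1.44 (1.55 when corrected), was the largest of the 18 enzymes.

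Summed levels are a description with no test. The 18 enzymes together were at 1351, 1406 and 1473 CPM in the WT day 15 libraries, 1294, 1260 and 1164 in those of KO day 15 and 1257 and 1204 in those of week 70. All WT libraries stood above all KO libraries, and KO day 15 and week 70 overlapped. Genes of the mevalonate arm summed to 627.5 ± 32.2 CPM for WT and 531 ± 40.5 for KO day 15 (SD, n = 3 each), and to 465 and 480.2 at week 70. Hmgcs1 alone held 424 ± 27.7 and 325 ± 28.2 CPM of the fetal sums (SD, n = 3 each), so it weighs most in them. Neither this arm nor the 18 enzymes were summed without Hmgcs1, and these sums do not show a fall shared by their other genes. The squalene and sterol arm was at 783 ± 30.1 and 708 ± 26.9 CPM (SD, n = 3 each) and overlapped both fetal groups at week 70, with 792 and 724. The SREBP genes summed to 489 ± 9.13 CPM in WT, 226 ± 13.7 in KO day 15 (SD, n = 3 each), and 727 and 675 at week 70. The efflux genes summed to 218 ± 6.90 and 129.8 ± 2.19 CPM (SD, n = 3 each), and to 297 and 306 at week 70. In both sets the 3 groups did not overlap, with KO day 15 lowest. Srebf2 alone held 317 ± 9.69 and 95.6 ± 9.39 CPM of the fetal SREBP sums (SD, n = 3 each). The SREBP sum therefore does not show a fall shared by its genes. No sum was corrected for length and GC content. In the corrected genotype test Abca1 and Abcg1 were lower (-0.82 and -0.64) and Abcg4 and Nr1h2 higher (0.48 and 0.46).

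**Figure D4:**
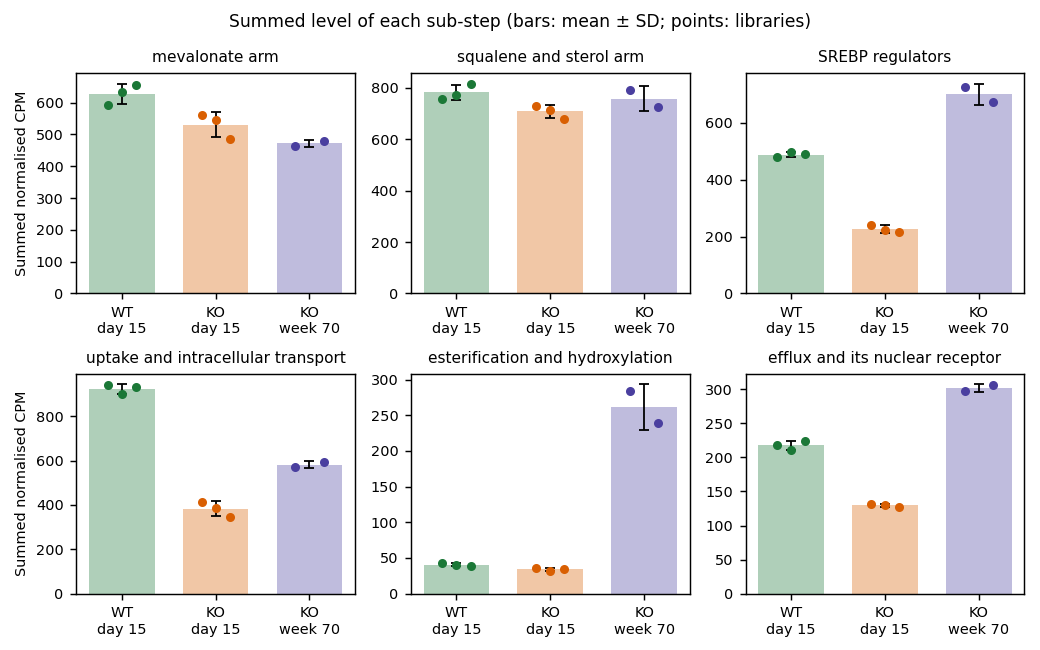
Summed normalised CPM of each of the 6 sub-steps, with bars for the mean ± SD and points for the libraries (3, 3 and 2). SREBP regulators, uptake and transport, and efflux have their lowest libraries in KO day 15, the mevalonate arm has its lowest at week 70, and esterification and hydroxylation is highest at week 70. The sums were not corrected for length and GC content.

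Among the SREBP genes, Srebf2 and its escort Scap were called lower in the fetal knockout, Insig2 higher, and Insig1 was not called. Srebf2 was at 306, 325 and 319 CPM in the WT day 15 libraries, 106, 91.7 and 88.75 in those of KO day 15 and 413 and 372 in those of week 70. The groups did not overlap, and the fetal knockout was lowest. The log2 fold change between genotypes was -1.69 (SE 0.075, edgeR adjusted p 3.96e-08) and -0.79 when corrected, and with age it was 1.94 and 0.85 when corrected. Scap was at 86.3, 82.7 and 88.8, then 45.6, 38.6 and 34.6, then 98.2 and 100.3 CPM. It fell by 1.08 and rose by 1.23, but both calls were lost after correction, at -0.10 and 0.03, and Scap has a GC content of 59.1%, against 42.9% for Sc5d.

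Insig1, itself a target of SREBP2, was at 58.0, 63.25 and 56.6 CPM in the WT day 15 libraries, 56.8, 54.0 and 53.5 in those of KO day 15 and 155 and 136 in those of week 70. The fetal genotypes overlapped, with -0.07 and an edgeR adjusted p of 0.334, and the rise with age was 1.31 (1.49 when corrected). Insig2 was at 28.5, 26.0 and 25.55, then 32.15, 37.4 and 37.4, then 61.1 and 65.5 CPM. It rose by 0.46 between genotypes (0.27 when corrected) and by 0.73 with age (1.10 when corrected).

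Per Srebf2 count, Insig1 counts were 0.19, 0.195 and 0.177 in the WT day 15 libraries, 0.535, 0.589 and 0.603 in those of KO day 15 and 0.376 and 0.366 in those of week 70. The 3 groups were apart, with the fetal knockout highest, and this ratio too was chosen after its values were seen. The genes differ in GC content (48.2% for Insig1 and 57.9% for Srebf2) and in exon length (3093 and 7184 bases). When corrected for both, their log2 fold changes between genotypes were -0.15 (not called) and -0.79.

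**Figure D5:**
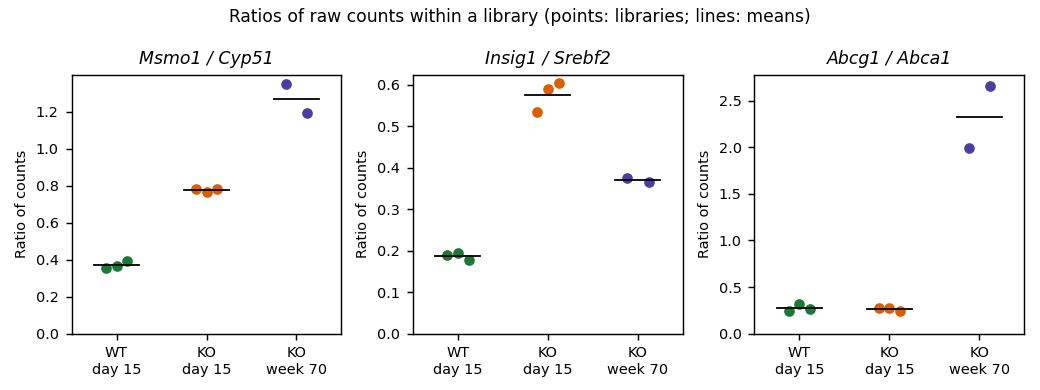
Ratios of raw counts within each library for 3 pairs of genes chosen after their values were seen, with 1 point per library and a line at the group mean. Msmo1 to Cyp51 is lowest in WT day 15 and highest at week 70, Insig1 to Srebf2 is highest in KO day 15, and Abcg1 to Abca1 overlaps between the fetal groups and is 1.99 and 2.66 at week 70.

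Uptake and transport held the gene with the largest fall between genotypes before correction. Lrp1 encodes a large endocytic receptor for lipoproteins and other ligands. It was at 761, 720.3 and 746 CPM in the WT day 15 libraries, 247, 226 and 189 in those of KO day 15 and 333.5 and 343 in those of week 70, with no overlap. The log2 fold change between genotypes was -1.71 (SE 0.087, edgeR adjusted p 8.38e-08) and -0.66 when corrected. Lrp1 has the longest exons of the 32, 17717 bases in all, at 57.9% GC. The rise of 0.52 with age became a fall of 0.28 when corrected, so its direction with age depends on the correction.

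Npc1 and Npc2 encode the membrane and the soluble protein that pass cholesterol out of the lysosome, and of these Npc1 alone was called between genotypes before correction; the difference between them was not tested. Npc1 was at 54.3, 53.9 and 58.7 CPM in the WT day 15 libraries, 31.9, 31.6 and 28.1 in those of KO day 15 and 72.0 and 89.75 in those of week 70. It fell by 0.83 between genotypes (SE 0.073, edgeR adjusted p 3.51e-06), and rose by 1.31 with age (-0.56 and 1.48 when corrected). For Npc2 the WT libraries stood at 92.9, 94.5 and 91.4 CPM and those of KO day 15 at 94.9, 91.3 and 93.1. Week 70 stood above both, at 111 and 112 CPM, with a difference of 0.16 by age that was not called. The fetal Npc2 libraries overlapped, and the difference of 0.04 (edgeR adjusted p 0.499) turned to -0.05 without the filter and to a call of 0.45 when corrected.

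Stard4, for a cytosolic sterol carrier, was at 30.6 to 35.1 CPM in WT, 36.3 to 40.3 in KO day 15, and 53.2 and 48.4 at week 70. The groups did not overlap, and Stard4 rose by 0.25 between genotypes. That call was lost when corrected, without the filter, in DESeq2, and without WT replicate 2 or KO replicate 1. With age Stard4 rose by 0.32 (0.75 when corrected), which upper-quartile scaling and the fit without KO day 15 replicate 2 did not call.

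Soat1, which esterifies cholesterol for storage, fell by 0.35 between genotypes, from 28.8 ± 2.18 to 22.0 ± 2.27 CPM (SD, n = 3 each). It was not called with upper-quartile scaling and was -0.25 when corrected. With age Soat1 rose by 0.66, to 36.1 and 38.4 CPM, a value that was 1.03 when corrected and 0.41 with upper-quartile scaling.

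Cyp46a1 had the largest rise of the 32 with age, and Fdps the largest fall, which was the wider of the pair when corrected (-3.82 against 3.25) or with pseudogene counts added. It was at 11.98, 13.5 and 9.76 CPM in the WT day 15 libraries, 12.9, 12.8 and 11.4 in those of KO day 15 and 248 and 200.1 in those of week 70. The fetal genotypes overlapped, at 0.11 (edgeR adjusted p 0.507), a value that was 0.67 and called when corrected and -0.02 without WT replicate 3. The rise with age was 4.08 (SE 0.116, edgeR adjusted p 3.7e-10) and 3.25 when corrected. Per kilobase, Cyp46a1 went from a mean of 3.75 CPM in KO day 15 to 68.2 at week 70, the highest mean of the 32 there. Hmgcs1 was next at 61.4, but the order rests on week 70 replicate 1. In replicate 2 Hmgcs1 was ahead per kilobase, with 289 CPM over 4594 bases against 200.1 over 3287 for Cyp46a1.

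All 4 efflux genes fell in the fetal knockout before correction. Abca1, which loads cholesterol onto lipid-poor apolipoproteins, was at 99.6, 86.5 and 98.2 CPM in the WT day 15 libraries, 40.0, 40.7 and 39.8 in those of KO day 15 and 50.1 and 43.9 in those of week 70. It fell by 1.20 between genotypes (SE 0.065, edgeR adjusted p 1.18e-07), with -0.82 when corrected, and was not called with age, at 0.13. Abcg1, which exports sterols to larger lipoproteins, was at 24.6, 27.1 and 26.2, then 11.04, 11.2 and 9.57, then 99.8 and 117 CPM. It fell by 1.25 (-0.64 when corrected) and rose by 3.25 with age (2.61 when corrected).

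The ratio of Abcg1 to Abca1 counts overlapped between the fetal genotypes, at 0.247 to 0.314 in WT and 0.241 to 0.276 in KO day 15. At week 70 it was 1.99 and 2.66. Abcg4 was at 41.5 to 50.8 CPM in WT, 36.1 to 38.7 in KO day 15, and 56.3 and 64.6 at week 70, and Nr1h2 at 48.6 to 53.1, 39.9 to 42.2, and 91.1 and 80.4. In both genes the fetal knockout was lowest without overlap. The brain sterol transporter gene Abcg4 and the liver X receptor gene Nr1h2 fell by 0.28 and 0.24 between genotypes, but both were called higher after correction, at 0.48 and 0.46. The fall of Abcg4 was also lost without WT replicate 3 or KO replicate 3. Their rises with age, 0.58 and 0.95, were -0.43 (called lower) and -0.09 (not called) when corrected. Abcg4 and Nr1h2 have GC contents of 57.7 and 60.6%, and their direction depends on the correction.

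The third pair of groups, week 70 KO against WT day 15, differs in both genotype and age and gives the effect of neither. It shares libraries with both other comparisons, and the values are given side by side with them. Here edgeR called 19 of the 32 genes higher (59.4%) and 10 lower (31.2%), against 36.7% and 41.9% of 19465 tested genes (78.6% in either direction). Length and GC correction gave 14 higher and 11 lower, against 39.5% and 36.6% of all genes (76.2% in either direction). Srebf2 and Scap, which were lower in KO day 15 than in either other group, were 0.30 and 0.19 above WT day 15 at week 70, and neither was called when corrected, with upper-quartile scaling or with the replicate number as a block. Npc1 was 0.52 and Abcg1 2.05 above WT day 15, whereas Abca1, Lrp1 and Dhcr7 were 1.02, 1.15 and 0.28 below it. Sqle, Lss, Cyp51, Hmgcs1 and Acat2 were 0.81, 0.90, 0.60, 0.60 and 0.75 below it.

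Sorted by the order of their group means, 23 of the 32 genes had all 3 groups apart. In 9 of them week 70 was highest and KO day 15 lowest (Fdft1, Ebp, Srebf2, Scap, Npc1, Soat1, Abcg1, Abcg4 and Nr1h2). In 5 WT day 15 was highest and week 70 lowest (Acat2, Hmgcs1, Sqle, Lss and Cyp51), all of them synthesis enzymes. In 4 the order was the reverse (Msmo1, Sc5d, Insig2 and Stard4), in 3 WT day 15 was highest and KO day 15 lowest (Dhcr7, Lrp1 and Abca1), and in Fdps and Tm7sf2 KO day 15 was highest and week 70 lowest. The share of all tested genes with all 3 groups apart was not counted, so these patterns only describe the 32 genes. CPM did not overlap between genotypes for 26 of the 32 (7 higher and 19 lower), against 68.3% of all tested genes (32.1% higher and 36.2% lower). Between ages it did not overlap for 30 (23 higher and 7 lower), against 87.9% (42.3% and 45.6%). Between week 70 and WT day 15 it did not overlap for 30 (19 higher and 11 lower), against 86.4% (40.1% and 46.3%).

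Other genes of the pathway were taken from a list of 37, of which 36 were in the table and 32 were tested. Between the fetal genotypes 15 were lower and 4 higher (46.9% and 12.5%, against 32.5% and 30.1% of all genes tested), with a median of -0.30 (0.01 when corrected, with 12 lower and 5 higher). Pltp, for the phospholipid transfer protein of lipoproteins, fell most, by 2.14, from 22.6 ± 5.42 to 4.98 ± 1.012 CPM (SD, n = 3 each). The largest rises were Ggps1, which makes geranylgeranyl diphosphate from the same isoprenoid units, at 1.05, and the sterol carrier gene Scp2, at 0.42.

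With age 23 of these 32 were higher and 6 lower (71.9% and 18.8%, against 37.6% and 44.4% of all genes tested), and 21 and 4 when corrected. The cholesteryl ester hydrolase gene Nceh1 rose by 4.78, from 6.43 ± 0.603 CPM (SD, n = 3) to 190.2 on average, and Lcat, which esterifies cholesterol on lipoproteins, by 4.48. The lipoprotein receptor gene Lrp8 fell by 1.98 and the sterol transporter gene Gramd1a by 1.94. Against WT day 15, 20 of the 32 were higher and 6 lower at week 70 (62.5% and 18.8%, against 36.7% and 41.9% of all genes tested), and 22 and 5 when corrected. The rule for named genes drew the same 4, with 4.44 for Nceh1, 4.69 for Lcat, -2.30 for Lrp8 and -1.66 for Gramd1a.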

How the data were processed

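RNA-seq of whole brain was available as 8 libraries. What the authors deposited is a single matrix of unnormalised counts, with Ensembl genes in rows and the libraries in columns. The submitters' processing notes name FastQC, cutadapt, Trimmomatic, HISAT2, featureCounts and edgeR, and the builds GRCm38 and GRCm39, without roles or order. Whether counting used strand, and what became of multi-mapping reads, is not given in the sources used here, so rows of genes with near-identical copies are uncertain.

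Groups followed the titles. Genes were kept by filterByExpr, libraries scaled by TMM, and each pair of groups tested by the two-sided quasi-likelihood F-test in edgeR 4.0.16 (R 4.3.3), with Benjamini-Hochberg adjustment over all genes tested and a threshold of 0.05. The standard error is the log2 fold change divided by the root of F. Printed CPM were scaled over all 8 libraries. Length and GC content came from GENCODE release M 21 (97.3% of identifiers matched). For the correction, the log counts of a library minus the means of the genes were fitted by smooth terms of both (mgcv 1.9.3), and the fitted values served as offsets. Processed pseudogenes were matched to coding transcripts with minimap2 2.31 (50% aligned, 85% identity). The scripts were tested on simulated data with few changed genes and no trend with length or GC content. That simulation cannot show how well the correction or the scaling works on these data. The alternatives were scaling by RLE or by upper quartile, the filter (none, or a mean of 10 counts), DESeq2 1.42.0 (with its own size factors and filtering, on all genes with a count, so that the filter changed too), 1 fit of all 8 libraries, the replicate number as a block, the correction (also with the block), and each library left out. Adding pseudogene counts was chosen after seeing the data. The members and lists were chosen with earlier results of these data known. All members could be named, and of the other pathway genes the 2 largest rises and falls with no overlap and a mean of at least 50 counts. One gene that this rule names is not reported here. Replicate pairs differed by more than counting noise in every group.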

Additional observations from a re-analysis of the deposited data

How the results depend on the processing

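The counts of genes called higher and lower between the genotypes were 7 and 17, and 10 lower with upper-quartile scaling, 13 higher with length and GC corrected, and 12 higher with the replicate block and the correction together. Leaving out 1 library gave 5 to 9 higher and 15 to 17 lower. Of 19543 to 20141 tested genes, these fits called 5175 to 5274 higher and 5818 to 6097 lower. By age the counts were 19 and 8, with 12 higher under upper-quartile scaling. Without 1 KO day 15 library they were 16 to 18 higher and 6 to 8 lower. Of 19721 to 19816 tested genes, those fits called 7184 to 7287 higher and 8251 to 8350 lower. Week 70 against WT day 15 gave 19 and 10, and 12 higher with the replicate block and the correction. Without 1 WT library it gave 18 or 19 higher and 9 or 10 lower. Of 18944 to 19023 tested genes, those fits called 6752 to 7007 higher and 7353 to 7566 lower. In fits without 1 week 70 library, the lone one left is assumed to vary like the other group, and their counts are not given. All other alternatives stayed within 1.5 times of these counts. With the replicate block and the correction together, 4554 of 19050 tested genes were higher and 4660 lower between genotypes. Against WT day 15 that fit called 6819 of 18952 tested genes higher and 6158 lower.

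Several values changed sign. Between genotypes, upper-quartile scaling gave 0.08 for Fdft1 and 0.10 for Insig1, no filter gave -0.04 for Hsd17b7 and -0.05 for Npc2, and DESeq2 gave -0.01 for both. The correction gave 0.23 for Fdft1, 0.16 for Lss, -0.11 for Hsd17b7, 0.48 for Abcg4 and 0.46 for Nr1h2, and with the replicate block 0.23, 0.16, -0.12, 0.49 and 0.45. With 1 library left out Cyp46a1 ranged from -0.02 to 0.22 and Hsd17b7 from -0.01 to 0.12. By age, upper-quartile scaling gave -0.11 for Pmvk, -0.06 for Sc5d, -0.09 for Npc2 and -0.12 for Abca1. Idi1 was at 0.08 with all 8 libraries in one fit, 0.08 with the replicate block, and -0.07 to 0.08 with 1 library left out. The correction gave 0.30 for Hmgcs1, 0.91 for Idi1, -0.10 for Fdft1, -0.18 for Dhcr7, -0.28 for Lrp1, -0.30 for Npc2, -0.43 for Abcg4 and -0.09 for Nr1h2. Together with the replicate block it gave 0.17, 0.91, -0.14, -0.20, -0.32, -0.27, -0.40 and -0.02, and -0.08 for Pmvk and -0.05 for Mvd. Against WT day 15, Mvd was at -0.12 with upper-quartile scaling, -0.03 with no filter, 0.00 with the mean filter, -0.17 with the correction, -0.19 with the replicate block and the correction, and -0.06 to 0.07 with 1 library left out. Nsdhl was at -0.09 with upper-quartile scaling and -0.16 to 0.21 with 1 library left out, and Idi1 at -0.06 with pseudogene counts added. The causes were not tested.

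The replicate block alone changed no call among the 32 genes between genotypes, and lost those of Nsdhl and Hsd17b7 by age and of Dhcr7, Srebf2 and Scap against WT day 15, in fits that drop the unmatched replicate. Same-numbered fetal libraries had r of -0.148, -0.176 and -0.159 between their deviations from the group means, and differently numbered ones 0.0637 to 0.0918. Deviations from a group mean cancel out within the group, so these values cannot show whether same-numbered samples shared a litter, run or batch. The labels give such samples only a number in common. Depth limits Fdps most, with 15 and 13 counts at week 70.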
